A study of Mus musculus with 57 samples.

Results

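The genes described here are 10 mouse heat shock genes, chosen by symbol: Hspa1a, Hspa1b, Hspb1, Dnajb1, Hsph1, Hsp90aa1, Hspa8, Bag3, Hspd1 and Hspe1. Each symbol matched 1 Ensembl ID of the 54307 genes in the table, so all 10 were found, and all 10 passed the filter on low counts in every comparison. The proteins of Hspa1a to Bag3 in this list act in the cytosol and nucleus, whereas Hspd1 and Hspe1 encode chaperonins that work in mitochondria, so the name cytosolic leaves these last members out. The data are whole-liver RNA-seq profiles from 57 mice, all male, of strain C57BL/6JJcl and genotype WT. At 6 weeks of age and after 1 week of acclimatization they were fasted for 12 h and dosed, and livers were taken 24 h later. By gavage, 4 mice received alpha-naphthyl isothiocyanate (ANIT), 6 acetaminophen (APAP), 7 4,4'-methylene dianiline (MDA) and 5 thioacetamide (TAA), and 13 received 0.5% methylcellulose (Ctrl). By the intraperitoneal route, 7 mice received CCl4 and 4 galactosamine (GAL), and 2 received 0.9% saline (CIP). Into the tail vein, 7 mice received the plant lectin concanavalin A (ConA) and 2 received 0.9% saline (CIV). The labels also name corn oil among the vehicles without saying which compound it carried, and no control here received it, so for a compound given in corn oil the compound and its vehicle cannot be told apart. Each liver had been perfused, and RNA came from part of the outer left lateral lobe. The series was designed to tune the estimation of cell type shares from whole-liver RNA.

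Heat shock proteins are chaperones: they bind unfolded or newly made proteins, keep them from aggregating and help them to fold or to be degraded. When misfolded protein accumulates, the transcription factor HSF1 is freed from chaperones and binds heat shock elements, which are inverted repeats of the letters GAA and TTC in front of these genes. HSP70 proteins (Hspa1a and Hspa1b are stress-inducible, Hspa8 is made constitutively) work with J-domain proteins such as Dnajb1, which deliver substrates, and with nucleotide exchange factors such as Hsph1 and Bag3, which release them. Hspb1 is a small heat shock protein that holds unfolded proteins, and Hsp90aa1 encodes the inducible HSP90 that matures kinases and receptors. Hspd1 and Hspe1 are the ring and the lid of the mitochondrial folding chamber. Several of these hepatotoxicants are known to be turned into reactive metabolites by hepatocytes.

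The promoters are shown first because the members differ in how many exact matches to the heat shock element letters were found before their starts. RefSeq promoters on GRCm38.p6 were present for 8 of the 10 members; Hspa8 and Hsp90aa1 had no entry. In the 250 bases before each annotated start, both strands were searched for 3 alternating units (GAANNTTC followed by NNGAA, or TTCNNGAA followed by NNTTC) and for 2 units (GAANNTTC or TTCNNGAA), where matches may overlap and every 3-unit match also holds 2-unit matches. Of 32851 mouse promoters in the same table, 153 (0.47%) held a 3-unit match and 4218 (12.8%) a 2-unit match. A match is a description of letters and not evidence that a factor binds. The windows of Hspa1a (chr17:34972157-34972406, minus strand) and Hspb1 (chr5:135887669-135887918, plus strand) are printed 5′ to 3′, ending at the base before the start, with matches in capitals.
Hspa1a: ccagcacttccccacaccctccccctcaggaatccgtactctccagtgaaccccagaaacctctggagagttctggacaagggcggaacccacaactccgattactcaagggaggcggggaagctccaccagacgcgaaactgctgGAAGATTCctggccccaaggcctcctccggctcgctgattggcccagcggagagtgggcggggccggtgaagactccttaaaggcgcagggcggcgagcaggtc
Hspb1: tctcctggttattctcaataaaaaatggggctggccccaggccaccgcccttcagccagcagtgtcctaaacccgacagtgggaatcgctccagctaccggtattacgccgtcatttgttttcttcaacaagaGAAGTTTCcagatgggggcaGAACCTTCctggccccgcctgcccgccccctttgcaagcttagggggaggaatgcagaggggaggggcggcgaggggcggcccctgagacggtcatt

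The Hspa1b window (chr17:34959239-34959488, minus strand) differed from that of Hspa1a at 3 of 250 bases, C44T, T47C and T249G, with the Hspa1a base first and positions counted from 1 at the window's first base. Both carry the same 2-unit match 104 to 97 bases before the start. Hspb1 has a 2-unit match 117 to 110 bases and another 97 to 90 bases before its start. The 30 bases around the matches of Hsph1 (chr5:149636351-149636380, minus strand) and of Hspe1 (chr1:55088053-55088082, plus strand) follow.
Hsph1: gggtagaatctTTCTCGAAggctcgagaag
Hspe1: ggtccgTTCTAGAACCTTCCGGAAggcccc
The Hspe1 run lies 89 to 72 bases before its start and holds both forms of the 3-unit match. Hspd1 points the other way and has 2 annotated starts. The window of start 2 (chr1:55087933-55088182, minus strand) overlaps that of Hspe1 by 215 bases and reads the same run in reverse complement. The window of start 1 (chr1:55088244-55088493) holds 0 matches. Among the members with a promoter entry, Hspd1 and Hspe1 were the only genes with a 3-unit match, and Dnajb1 and Bag3 had no match of either kind in these windows.

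Totals ran from 13826343 to 35075809 estimated counts per liver and mitochondrial transcripts from 5.11% to 39.3% of them. Levels are given in CPM, estimated counts relative to library size after TMM scaling, a method that sets libraries to a common level of most genes. The deposited values looked corrected for gene length, which no label states. Summed markers of hepatocytes (Alb, Ttr, Apoa1, Serpina1c, Fgb and Apob) stood at 19627 to 124192 CPM in the 57 livers, so the tissue label held. In bulk liver, fewer cells of a type and less RNA per cell cannot be told apart. A gene is called where edgeR's quasi-likelihood test gave a Benjamini-Hochberg adjusted p under 0.05 over all genes tested, and fold changes are log2 values with their SE. Each library is 1 mouse; the labels do not say whether mice of a group were dosed or processed together.

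Vehicle levels were the background for everything that follows. On the length-corrected scale, Hspa8 had the highest median of the 10 genes over the 17 vehicle mice, 660 CPM, followed by Hspe1 at 175 and Hspd1 at 172 CPM. Hsp90aa1 stood at 46.5, Bag3 at 20.9, Hsph1 at 18.6, Hspb1 at 14.7, Hspa1b at 7.72, Dnajb1 at 7.13 and Hspa1a at 0.936 CPM. Between intraperitoneal saline and gavage 0 of 10 members were called (background 0.0131% of genes), 0 at an unadjusted p under 0.05 and 0 with DESeq2. Between intravenous saline and gavage 0 of 10 were called (background 0.0263%, 0.0197% higher and 0.00658% lower), 1 at an unadjusted p under 0.05 and 0 with DESeq2. With 2 saline mice a group, these comparisons leave room for sizeable differences: the estimates reached -1.02 ± 0.44 for Hsph1 with intravenous saline.

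The gavage controls were not uniform in these genes. The 4 mice numbered 1 to 4 had 11.6 to 26.1 CPM of Hspa1b and the 9 mice with higher numbers 4.63 to 10.1 CPM, without overlap under TMM. Relative to the library total the ranges were 10.3 to 17.2 and 4.71 to 10.5 CPM and overlapped. Hspa8 stood at 724 to 1015 CPM in the 4 and 409 to 783 CPM in the 9, and Bag3 at 20.9 to 52.1 and 11.4 to 24.7 CPM, with overlap in both. Hsph1 followed the same order, with 23.2 to 42.0 and 11.7 to 28.0 CPM. ANIT mice carry only numbers up to 4, and the saline mice only 7 and 8. Values with the range of numbers as a covariate, or among mice numbered above 4, are given beside many of the results they moved, and the counts in the closing part.

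Against the vehicle of the same route, TAA, CCl4 and GAL raised most of the 10 genes, APAP raised a few, and ANIT, MDA and ConA were called for at most 2 genes. TAA raised 8 and lowered 0 (background 50.5% of genes called, 26.4% higher and 24% lower). CCl4 raised 8 and lowered 0 (33.5%, 18% and 15.6%), and GAL raised 7 and lowered 0 (28.5%, 12.8% and 15.7%). APAP raised 3 and lowered 1 (31.8%, 17.3% and 14.6%), and ANIT raised 2 and lowered 0 (28.2%, 14% and 14.2%). MDA raised 0 and lowered 1 (33.8%, 17.4% and 16.4%), and ConA raised 1 and lowered 0 (34.2%, 16.8% and 17.3%). The counts of ANIT, APAP, MDA and ConA, as shares of the 10 genes, lie near or below these backgrounds. The median log2 fold change of the 10 genes was 1.66 with CCl4, 1.47 with GAL, 1.36 with ConA, 1.24 with TAA and 0.64 with APAP, where the medians over all genes tested were 0.10, 0.08, 0.03, 0.03 and 0.07. It was 0.08 with ANIT and -0.12 with MDA, beside -0.01 and 0.03 over all genes.

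Against all 17 vehicle mice, the counts were 8 higher and 0 lower for TAA (background 49.7% called, 25.2% higher and 24.5% lower) and for CCl4 (53.4%, 26.2% and 27.2%). For GAL they were 7 higher and 1 lower (52.5%, 25.1% and 27.5%), and for APAP 4 higher and 1 lower (33.4%, 18.1% and 15.3%). ANIT had 2 higher and 0 lower (28%, 13.5% and 14.5%) and MDA 0 higher and 1 lower (34.2%, 17.2% and 17.1%). For ConA 9 of 10 were higher and 0 lower, where 68% of all genes were called, 34.3% higher and 33.7% lower. Compounds of 1 route share their vehicle mice, and the second set of comparisons shares all 17, so the comparisons are not independent of each other.

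**Figure D1:**
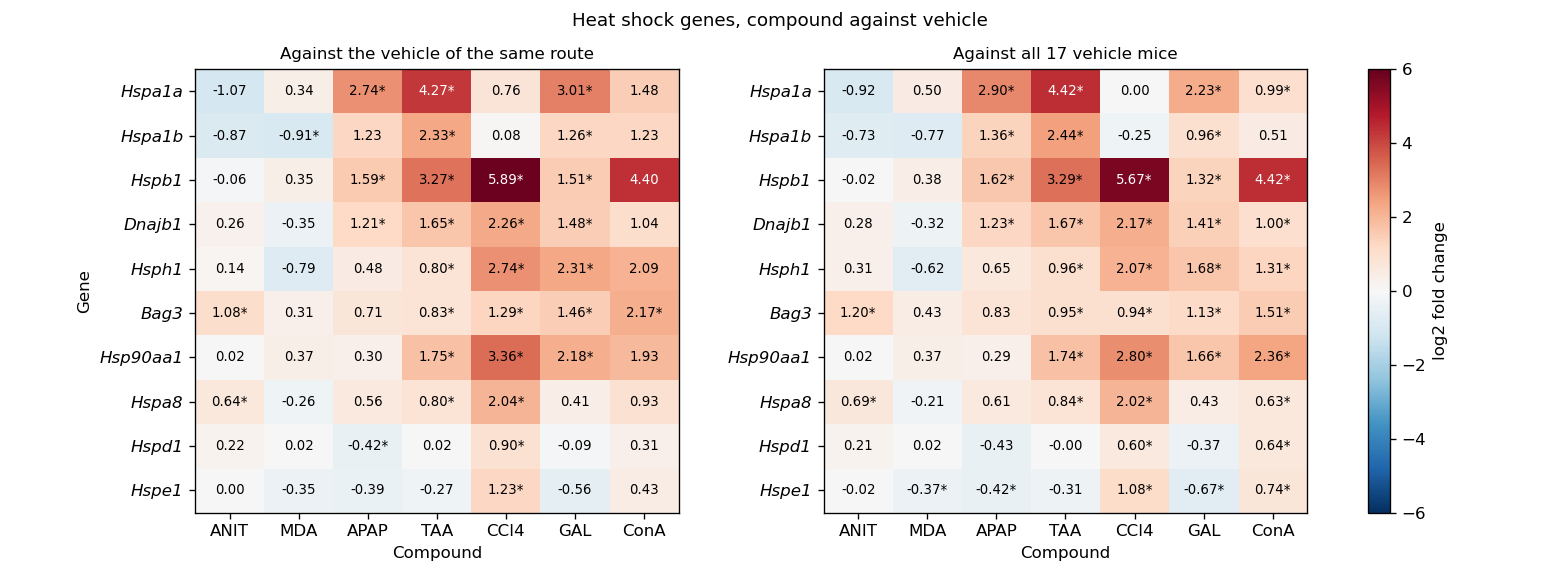
Log2 fold changes of the 10 genes (rows) for each compound (columns), on the left against the vehicle of the same route and on the right against all 17 vehicle mice; colour runs from -6 to 6 and an asterisk marks an adjusted p under 0.05 (edgeR's quasi-likelihood test). The deepest colour is Hspb1 with CCl4, 5.89 on the left and 5.67 on the right, while the Hspa1a and Hspa1b cells of the same column stay near 0.

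The number of members called changed for some compounds when 1 liver was left out. Leaving out a saline mouse leaves a vehicle arm of 1, whose spread is then taken from the treated mice, so calls gained or lost there say little about that liver. For GAL the number was 2 without CIP mouse 7 and 2 without CIP mouse 8, against 7 with both saline mice, with folds of Hspb1 (1.66 and 1.38, against 1.51) and Dnajb1 (1.40 and 1.56, against 1.48) about as large. For ANIT it was 0 without mouse 2 or mouse 3 and 1 without mouse 4. For MDA it was 0 without mouse 8 or 12, 2 without mouse 2 or 7 and 3 without mouse 1, and for ConA it was 2 without ConA mouse 12 or CIV mouse 8. For CCl4 it stayed at 6 to 8. For TAA it was 7 or 8, but without TAA mouse 1 the 7 were 6 of the 8 raised genes and Hspe1, called lower (-0.41, adjusted p 0.0354), while Hsph1 and Bag3 were not called.

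By estimate, the inducible HSP70 genes rose most with TAA and stayed near vehicle level with CCl4. When compounds were tested against each other, neither gene was called different between TAA and GAL or between TAA and APAP. Between TAA and CCl4, Hspa1a was called different and Hspa1b was not. Hspa1a (ENSMUSG00000091971) and Hspa1b (ENSMUSG00000090877) are near-identical neighbours: 58.8% of the 50-nt stretches of Hspa1a transcripts occur in those of Hspa1b, and 62.3% the other way. The division of reads between them is therefore uncertain, and their sum is given first. In the 13 gavage vehicle mice the summed level was 5.77 CPM at the lowest, 8.76 at the median and 27.3 at the highest. The 5 TAA mice stood at 54.9, 50.2, 72.3, 91.1 and 61.5 CPM. Every TAA mouse lay above every vehicle mouse. The rise was 2.64 ± 0.31 (log2 fold change ± SE, adjusted p 8.3e-07).

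With GAL the summed level was 14.2, 28.0, 18.1 and 28.4 CPM, beside 9.07 and 7.04 CPM in the intraperitoneal saline mice. All 4 GAL mice were above both saline mice, and 2 of them above all 17 vehicle mice under TMM (4 relative to the library total). The difference was 1.46 ± 0.37 (adjusted p 0.0304) against saline and 1.17 ± 0.36 (adjusted p 0.0083) against all vehicles. CCl4, given by the same route, left the sum at 2.55 to 15.2 CPM with a median of 8.40. These 7 mice spread to both sides of the saline mice, and the difference was 0.14 ± 0.53 (adjusted p 0.868). The change in Hspa1a with CCl4 minus that with GAL was -2.23 ± 0.69 (adjusted p 0.0115), and the change with TAA exceeded that with CCl4 by 3.47 ± 1.10 (adjusted p 0.0421; 3.05, adjusted p 0.0775, with scaling to the library total).

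APAP livers were split. The summed level was 95.4 CPM in mouse 1, 36.7 in mouse 6, 25.3 in mouse 2 and 14.3 in mouse 4, but 1.73 in mouse 8 and 1.86 in mouse 11. The last 2 lay below every gavage vehicle mouse and mice 1 and 6 above, so the groups overlapped in both directions. The sum differed by 1.45 ± 0.56 (adjusted p 0.0561) against gavage and by 1.58 ± 0.51 (adjusted p 0.0183) against all vehicles. In mice 8 and 11, summed neutrophil markers stood at 196 and 263 CPM, against 13.4 to 41.3 CPM in the other APAP mice. The part of infiltrating cells in this split was not tested.

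ConA livers held 2.41 to 58.4 CPM of the sum with a median of 5.31. Only mouse 8 (58.4 CPM) was above all 17 vehicle mice, and the difference was not called against saline (1.26 ± 1.21, adjusted p 0.452). ANIT livers held 6.88, 6.21, 2.62 and 8.04 CPM, and MDA livers 4.40 to 9.38 with a median of 5.94. For ANIT the sum differed by -0.88 ± 0.42 (adjusted p 0.13) and for MDA by -0.75 ± 0.31 (adjusted p 0.0642).

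**Figure D2:**
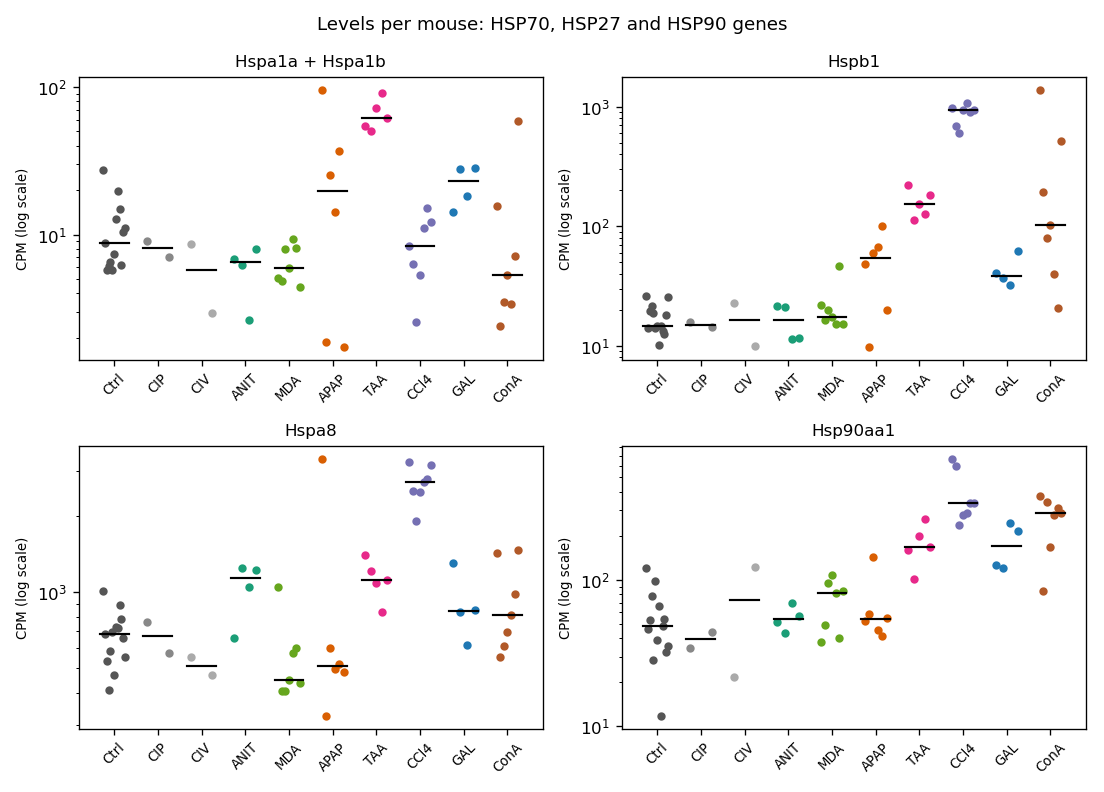
Level in each of the 57 livers, in CPM on a log scale, of the Hspa1a and Hspa1b sum, Hspb1, Hspa8 and Hsp90aa1; each point is a mouse and each black bar the median of its group, with vehicle groups (Ctrl, CIP, CIV) on the left. By group median, TAA stands highest in the HSP70 sum (61.5 CPM) and CCl4 in Hspb1 (936 CPM), while the highest single livers are APAP mouse 1 (95.4 CPM) and ConA mouse 11 (1375 CPM).

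Taken as separate rows, Hspa1a gave larger folds than Hspa1b from a lower base. In TAA livers Hspa1a stood at 10.9, 15.7, 17.9, 27.4 and 16.4 CPM against 0.15 to 1.61 with a median of 1.05 in gavage vehicle mice, without overlap. The fold change was 4.27 ± 0.28 (adjusted p 4.97e-10), and that of Hspa1b 2.33 ± 0.33 (adjusted p 8.23e-06). With APAP, Hspa1a was above every gavage vehicle mouse in 4 of 6 mice and rose by 2.74 ± 0.56 (adjusted p 0.000996). Among mice numbered above 4 that value was 2.04 (adjusted p 0.0969). With GAL it rose by 3.01 ± 0.67 (adjusted p 0.0201), and it was 2.57 (adjusted p 0.12) without CIP mouse 7, 3.46 (adjusted p 0.0834) without CIP mouse 8 and 2.97 (adjusted p 0.0517) without GAL mouse 8. Against all 17 vehicle mice it was 2.23 ± 0.37 (adjusted p 2.56e-05).

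Hspa1b was called in other compounds less firmly. With MDA it stood at 3.90 to 7.33 CPM with a median of 4.93 and gave -0.91 ± 0.32 (adjusted p 0.0325) against gavage. Among mice numbered above 4 the value was -0.51 (adjusted p 0.206), and it was not called without MDA mouse 1, 3, 8 or 12 (-0.89 to -0.85). With GAL it rose by 1.26 ± 0.37 (adjusted p 0.0454), and it was 1.59 (adjusted p 0.101) and 1.00 (adjusted p 0.238) without CIP mouse 7 or 8. It was not called either without GAL mouse 4, 7 or 8 (1.15, 1.39 and 1.10). With APAP it gave 1.36 ± 0.52 (adjusted p 0.0461) against all vehicles, and 0.37 (adjusted p 0.655) without APAP mouse 1. Without mouse 2 or mouse 6 it was not called either (adjusted p 0.0548 and 0.0791). For ANIT, with the range of numbers in the fit, Hspa1b was lower at -1.67 (adjusted p 0.00311), where the value without it was -0.87 ± 0.45 (adjusted p 0.16).

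Hspb1 (ENSMUSG00000004951), the small heat shock protein whose window is printed above, had the largest rise of the 10 genes with CCl4. The 2 intraperitoneal saline mice had 15.8 and 14.2 CPM. The 7 CCl4 mice stood at 599 CPM at the lowest, 936 at the median and 1080 at the highest, far above every vehicle mouse. The ratio of means was 58.1 and the log2 fold change 5.89 ± 0.31 (adjusted p 4.92e-06). The change exceeded that with GAL by 4.34 ± 0.70 (adjusted p 2.84e-06), a test in which the shared saline mice cancel.

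In TAA livers Hspb1 stood at 220, 113, 155, 127 and 181 CPM, where gavage vehicle mice had 10.1 to 25.8 with a median of 14.7. The groups did not overlap, and the rise was 3.27 ± 0.19 (adjusted p 1.04e-10). In GAL livers it stood at 40.7, 36.6, 32.4 and 62.2 CPM, above all 17 vehicle mice, a rise of 1.51 ± 0.31 (adjusted p 0.0158). It was 1.66 (adjusted p 0.0752) without CIP mouse 7 and 1.38 (adjusted p 0.116) without CIP mouse 8, but 1.32 ± 0.20 (adjusted p 1.06e-05) against all vehicles. APAP livers held 9.72 to 100 CPM with a median of 54.1, 4 of 6 above every gavage vehicle mouse and mouse 11 below. The rise was 1.59 ± 0.31 (adjusted p 0.000617), or 1.33 (adjusted p 0.0627) among mice numbered above 4.

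ConA livers ranged more widely in Hspb1 than those of any other group. The 7 mice stood at 80.1, 103, 40.0, 20.7, 513, 1375 and 191 CPM for mice 2, 3, 4, 5, 8, 11 and 12, and the 2 intravenous saline mice at 22.9 and 9.98. Under TMM all but mouse 5 were above all 17 vehicle mice, and relative to the library total 5 of 7 were. Against saline the difference was 4.40 ± 1.77 (adjusted p 0.0793) and against all vehicles 4.42 ± 0.46 (adjusted p 5.99e-09), the latter 3.33 without mouse 11. ANIT (11.5 to 21.4 CPM) and MDA (15.1 to 46.2 CPM, median 17.3) overlapped the gavage vehicle mice and were not called, at -0.06 ± 0.24 and 0.35 ± 0.22.

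**Figure D3:**
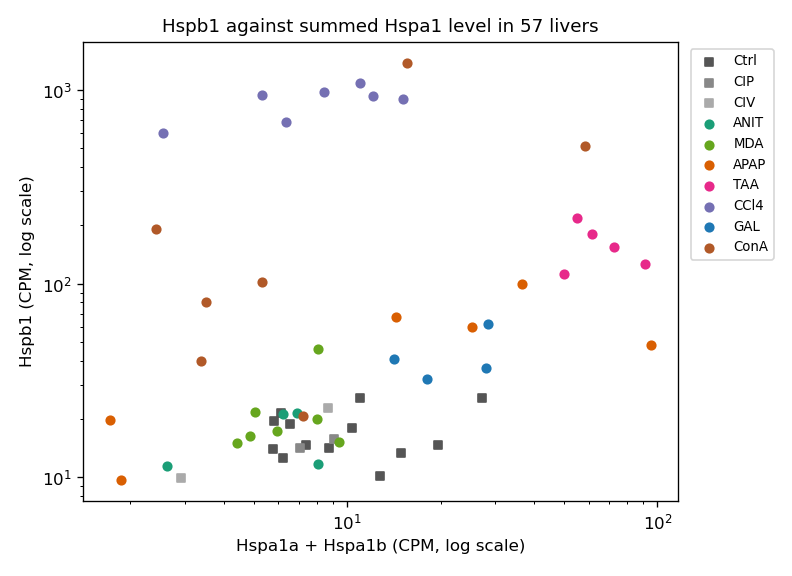
Hspb1 against the summed level of Hspa1a and Hspa1b in the 57 livers, both in CPM on log axes, with squares for vehicle mice and circles for treated mice coloured by compound. The 7 CCl4 mice lie at 599 to 1080 CPM of Hspb1 with 2.55 to 15.2 CPM of the sum, and the 5 TAA mice at 113 to 220 CPM of Hspb1 with 50.2 to 91.1 CPM of the sum.

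Among the partners of HSP70, the J-domain protein Dnajb1 (ENSMUSG00000005483) rose with CCl4, TAA and GAL in every mouse. Gavage vehicle mice held 5.96 to 9.98 CPM with a median of 7.13, and saline mice 5.16 to 8.52. CCl4 livers held 29.1 to 43.7 CPM with a median of 31.1 (2.26 ± 0.19, adjusted p 3.1e-05). TAA livers held 28.4, 19.8, 23.3, 19.7 and 22.1 CPM (1.65 ± 0.13, adjusted p 7.64e-09), and GAL livers 24.1, 18.2, 13.8 and 24.1 CPM. No mouse of these 3 groups overlapped any vehicle mouse. The GAL rise was 1.48 ± 0.29 (adjusted p 0.0137), with 1.40 (adjusted p 0.0857) and 1.56 (adjusted p 0.0783) without CIP mouse 7 or 8, and 1.41 ± 0.15 (adjusted p 5.11e-08) against all vehicles.

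The call of Dnajb1 with APAP rested on 1 liver. The 6 mice stood at 64.6, 9.71, 7.24, 9.19, 5.30 and 4.58 CPM. Mice 8 and 11 lay below the range of the gavage vehicle mice, mice 2, 4 and 6 within it and mouse 1 far above. The fold change was 1.21 ± 0.40 (adjusted p 0.0276) and -0.03 (adjusted p 0.919) without mouse 1. ConA livers held 8.84 to 27.3 CPM with a median of 10.2, all 7 above both saline mice under TMM but 2 of 7 relative to the library total, and 1.04 ± 0.50 was not called (adjusted p 0.134). Against all vehicles the value was 1.00 ± 0.18 (adjusted p 2.78e-05).

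Hsph1 (ENSMUSG00000029657), the HSP110 exchange factor, rose with CCl4 and GAL and less with TAA. CCl4 livers held 42.7 to 111 CPM with a median of 90.0 and GAL livers 50.3, 73.2, 61.1 and 80.9 CPM, against 18.6 and 7.58 CPM in saline mice. Both groups lay above all 17 vehicle mice. The rises were 2.74 ± 0.44 (adjusted p 0.00133) and 2.31 ± 0.44 (adjusted p 0.0129), and without CIP mouse 7 they were 3.57 and 3.19. TAA livers held 51.1, 34.4, 40.7, 27.3 and 37.0 CPM beside 11.7 to 42.0 in gavage mice, where 1 of 5 lay above the range. The rise of 0.80 ± 0.26 (adjusted p 0.0131) was 0.65 (adjusted p 0.062) without TAA mouse 1.

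Bag3 (ENSMUSG00000030847), an exchange factor that links HSP70 to the autophagic removal of protein, was called against the route vehicle with 5 of 7 compounds. Hspb1 and Dnajb1 followed with 4 each, and against all vehicles each of these genes was called with 5. Bag3 was the only member called with ConA against saline. ConA livers held 27.6 to 69.8 CPM with a median of 62.2 and the saline mice 17.1 and 9.19, without overlap (2.17 ± 0.39, adjusted p 0.00216). GAL livers held 44.8, 52.7, 46.4 and 49.7 CPM and CCl4 livers 29.1 to 56.2 with a median of 46.5, all above the saline mice at 17.7 and 17.6 CPM. The rises were 1.46 ± 0.17 (adjusted p 0.00322) and 1.29 ± 0.29 (adjusted p 0.00708), the latter 1.32 (adjusted p 0.0526) or 1.27 (adjusted p 0.0679) without CIP mouse 7 or 8.

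In TAA livers Bag3 stood at 60.3, 35.1, 33.5, 32.3 and 40.2 CPM, with 11.4 to 52.1 and a median of 21.7 in gavage mice. The rise of 0.83 ± 0.26 (adjusted p 0.0124) was 0.62 (adjusted p 0.0721) without TAA mouse 1. In ANIT livers it stood at 31.0, 62.0, 73.0 and 31.8 CPM, 2 of 4 above the vehicle range (1.08 ± 0.30, adjusted p 0.0126). The value was 0.95 (adjusted p 0.0556) without mouse 2 and 0.83 (adjusted p 0.0969) without mouse 3. With the range of numbers in the fit, which sets the 4 ANIT mice beside the 4 gavage mice of the same range, it was 0.54 (adjusted p 0.255).

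**Figure D4:**
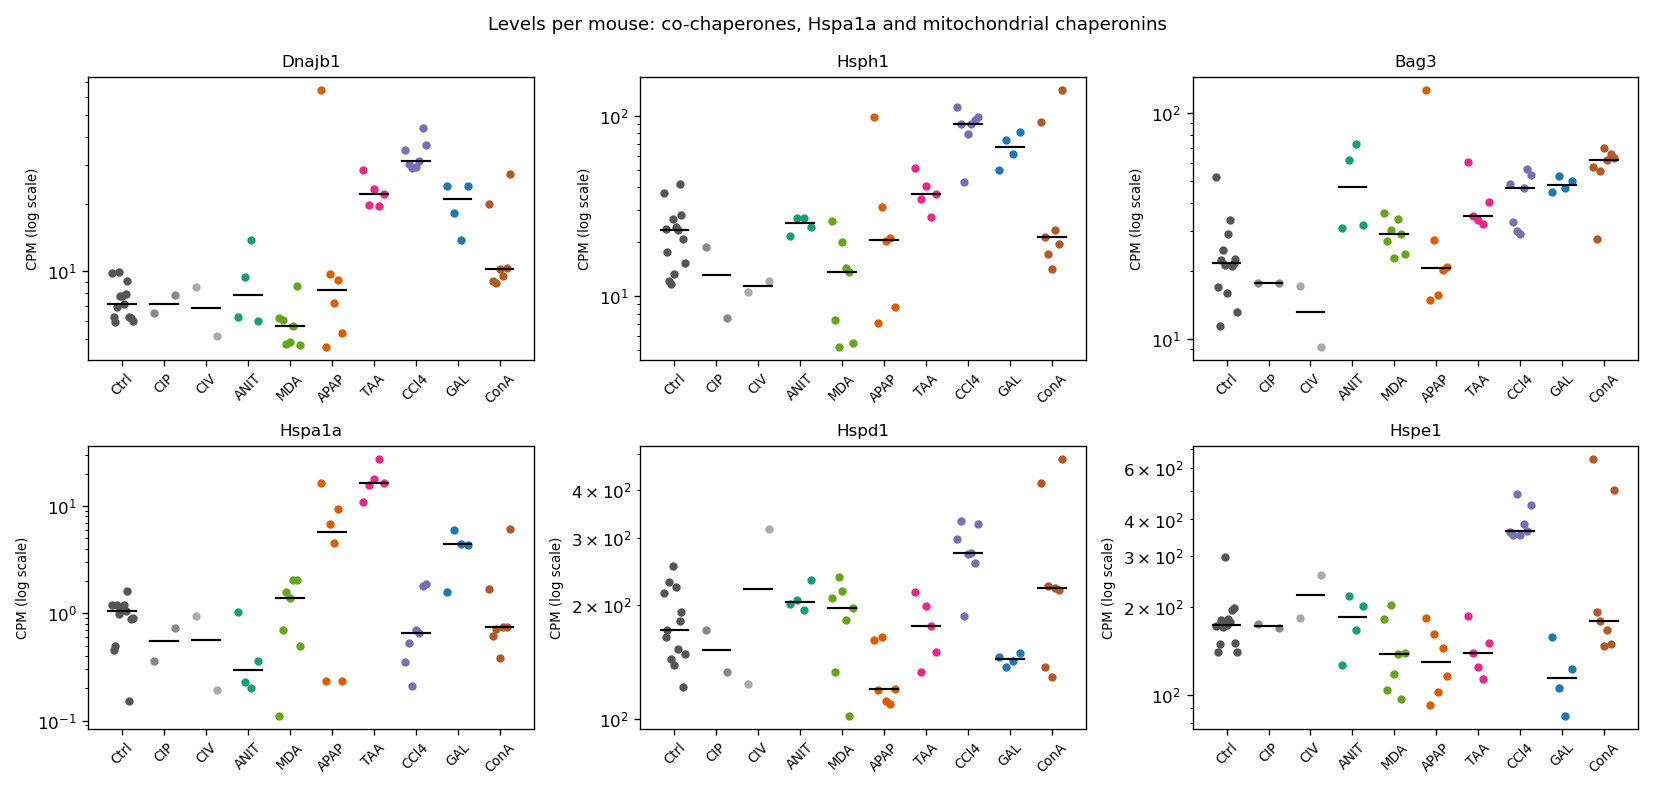
Level in each of the 57 livers, in CPM on a log scale, of Dnajb1, Hsph1, Bag3, Hspa1a, Hspd1 and Hspe1; points are mice, black bars are group medians. APAP mouse 1 stands at 64.6 CPM of Dnajb1, 98.0 of Hsph1 and 126 of Bag3, apart from the other APAP mice.

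Hsp90aa1 (ENSMUSG00000021270), the inducible HSP90, rose with CCl4, GAL and TAA. CCl4 livers held 236 to 667 CPM with a median of 335, against 34.4 and 44.0 CPM in saline mice (3.36 ± 0.51, adjusted p 0.000889). GAL livers held 127, 120, 245 and 215 CPM (2.18 ± 0.39, adjusted p 0.0105), or 2.07 (adjusted p 0.0746) and 2.31 (adjusted p 0.0687) without CIP mouse 7 or 8. All mice of both groups lay above both intraperitoneal saline mice. TAA livers held 159, 102, 199, 261 and 167 CPM beside 11.8 to 120 in gavage mice, 4 of 5 above the range (1.75 ± 0.34, adjusted p 0.000277).

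ConA livers held 84.4 to 372 CPM of Hsp90aa1 with a median of 288, and the saline mice 21.9 and 123. The difference was 1.93 ± 0.69 (adjusted p 0.0523) against saline and 2.36 ± 0.32 (adjusted p 4.79e-07) against all vehicles, with 6 of 7 mice above every vehicle mouse under TMM and 5 of 7 relative to the library total. Against CIV mouse 7 alone, with the spread taken from the ConA mice, the first value was 3.61 (adjusted p 0.015), and against CIV mouse 8 alone 1.18 (adjusted p 0.245). Without ConA mouse 12 it was 2.08 (adjusted p 0.0237). APAP, ANIT and MDA were not called, at 0.30 ± 0.35, 0.02 ± 0.39 and 0.37 ± 0.32. The change with APAP minus that with TAA was -1.42 ± 0.41 (adjusted p 0.0188).

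Hspa8 (ENSMUSG00000015656), the constitutive HSP70, was already abundant and rose most with CCl4. CCl4 livers held 1909 to 3249 CPM with a median of 2717, and the saline mice 764 and 578. No CCl4 mouse overlapped any of the 17 vehicle mice (2.04 ± 0.23, adjusted p 0.000152). The rise exceeded that with GAL, where livers held 1301, 837, 618 and 847 CPM (0.41 ± 0.31, adjusted p 0.342; 1.19, adjusted p 0.0469, with scaling to the library total), by 1.58 ± 0.39 (adjusted p 0.00149).

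TAA livers held 1400, 1211, 1089, 832 and 1113 CPM of Hspa8, 4 of 5 above the gavage range of 409 to 1015 (0.80 ± 0.17, adjusted p 0.000644). ANIT livers held 659, 1250, 1051 and 1219 CPM, 3 of 4 above that range (0.64 ± 0.20, adjusted p 0.0221). The ANIT value was 0.54, 0.64 and 0.56 without mouse 2, 3 or 4, with adjusted p of 0.0939, 0.0624 and 0.0807, 0.46 (adjusted p 0.0517) with scaling to the library total and 0.31 (adjusted p 0.333) with the range of numbers in the fit. Under TMM, APAP mouse 1 had 3351 CPM, the highest level of all 57 livers, where the other 5 APAP mice had 324 to 601. Relative to the library total it had 2417 CPM, below all 7 CCl4 mice.

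With the range of numbers in the fit, ConA was called against saline for Hspb1 (5.06), Hsph1 (2.63) and Hspa8 (1.17) beside Bag3. Both saline mice are numbered above 4, so this fit sets only ConA mice 8, 11 and 12 beside them. Mice 8 and 11 had the highest ConA levels of Hspb1, Hsph1 and Hspa8, as given with the ConA mice. MDA, with the range in its fit, was called lower for Hsph1 (-1.02) and Hspe1 (-0.42) beside Hspa1b.

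The mitochondrial chaperonin pair rose together with CCl4 and with no other compound against its route vehicle. Hspe1 (ENSMUSG00000073676) stood at 354 to 490 CPM with a median of 364 in CCl4 livers and at 175 and 170 in saline mice, without overlap with any vehicle mouse (1.23 ± 0.15, adjusted p 0.000306). Hspd1 (ENSMUSG00000025980) stood at 186 to 331 CPM with a median of 273, against 172 and 132 (0.90 ± 0.22, adjusted p 0.0124; 0.71, adjusted p 0.139, without CIP mouse 8). Both changes exceeded those with GAL, Hspe1 by 1.74 ± 0.30 (adjusted p 9.19e-06) and Hspd1 by 0.96 ± 0.26 (adjusted p 0.00386).

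With ConA neither gene of the pair was called against saline (Hspd1 0.31, Hspe1 0.43), and both were higher against all vehicles, where 2 mice carry much of the rise, as given with the ConA mice. In TAA livers, where the median of the Hspa1 sum was highest, Hspd1 gave 0.02 ± 0.16 and Hspe1 -0.27 ± 0.16. With APAP, Hspd1 stood at 110 to 164 CPM with a median of 119 beside 121 to 252 in gavage mice, and fell by 0.42 ± 0.15 on the log2 scale (adjusted p 0.0399). That fall was -0.38 without mouse 4 (adjusted p 0.0868) or mouse 6 (adjusted p 0.0869) and -0.40 without mouse 8 (adjusted p 0.078) or mouse 11 (adjusted p 0.0806), and -0.27 (adjusted p 0.157) with scaling to the library total. Among mice numbered above 4 it was -0.54 (adjusted p 0.0847). Against all vehicles Hspe1 was called lower with APAP (-0.42 ± 0.15, adjusted p 0.0335) and MDA (-0.37 ± 0.14, adjusted p 0.0456). The APAP call was lost without mouse 4, 8 or 11 (-0.39 to -0.34) and the MDA call without mouse 3, 4, 7, 8 or 12 (-0.37 to -0.30). With GAL against all vehicles, Hspe1 gave -0.67 ± 0.17 (adjusted p 0.00227) under TMM and 0.18 (adjusted p 0.391) with scaling to the library total. The all-gene median moved from 0.0056 to 0.84 between these scalings, so Hspe1 lay below it under both.

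Scaling mattered where compounds changed the make-up of the libraries. Replacing TMM by the library total moved the all-gene median of the log2 fold changes from 0.08 to 0.84 with GAL, from 0.10 to 0.53 with CCl4, from 0.03 to -0.56 with ConA, from 0.07 to 0.22 with APAP and from -0.01 to -0.23 with ANIT, all against the route vehicle. Relative to these shifts the 8 members called with CCl4 and the 7 called with GAL kept their direction. Against all vehicles, where the all-gene median with ConA moved from 0.0049 to -0.61, the count for ConA went from 9 to 3, and Bag3, Hsp90aa1 and Hspb1 remained at 0.88, 1.72 and 3.83, while Dnajb1 was 0.40 (adjusted p 0.1) and Hspa8 0.03 (adjusted p 0.883).

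ConA mice 8 and 11 stood apart in most of the 10 genes. They had the highest ConA levels of Hspb1, Dnajb1 (27.3 and 20.0 CPM), Hsph1 (139 and 91.8), Hspa8 (1470 and 1433), Hspd1 (484 and 418) and Hspe1 (504 and 645), where the other 5 ConA mice had at most 23.4 CPM of Hsph1 and 147 to 192 CPM of Hspe1. Against all vehicles, Hsph1 (1.31 ± 0.37) was 0.72 (adjusted p 0.0724) without mouse 8, and Hspa1a (0.99 ± 0.44, adjusted p 0.0465) was 0.02 without mouse 8 and 0.96 (adjusted p 0.0751) without mouse 11. Hspd1 (0.64 ± 0.21) was 0.41 (adjusted p 0.0818) and 0.48 (adjusted p 0.0546) without mouse 8 or 11, and Hspe1 (0.74 ± 0.23) was 0.38 (adjusted p 0.0914) without mouse 11. Without both mice, an alternative added because of their Hspb1 and Hsph1 levels, 4 of the 9 raised members remained called higher (Hspb1, Dnajb1, Hsp90aa1 and Bag3), and Hspa1b was called lower at -1.22. Mitochondrial transcripts made up 14.6% to 39.3% of ConA libraries, with 19.1% and 22.9% in mice 8 and 11.

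APAP mouse 1 likewise led its group in Hspa1b (79.0 CPM), Dnajb1, Hsph1, Hspa8 and Bag3. Its summed immediate early genes (Fos, Fosb, Jun, Junb, Egr1, Atf3, Ier2 and Dusp1, transcription factors and a phosphatase induced within minutes of a stimulus) stood at 1708 CPM, where the other 5 APAP livers had 155 to 316. Without it, Hspa1a (adjusted p 0.00636) and Hspb1 (adjusted p 0.00129) remained called higher against gavage and Hspd1 (-0.50) lower, Hspe1 was also called lower (-0.52, adjusted p 0.0183), and Dnajb1 was not called. Hspb1, which it did not lead, stood at 48.1 CPM there.

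The difference between compounds was tested for 21 pairs and 10 genes in 1 model of all 57 livers, with adjustment over the 18781 genes of each pair. Of 210 differences, 48 were called (22.9%), where 15.1% of the tests of all genes in the same pairs were called. MDA and TAA differed in 7 members (background 26.2% of genes), CCl4 and GAL in 6 (28.6%), MDA and CCl4 in 6 (9.41%) and ANIT and TAA in 5 (23.8%). ANIT and MDA differed in 0 members (background 0.24%), with 2 at an unadjusted p under 0.05, 0 with the library total and 0 when their livers were compared directly. For TAA and GAL, 0 members differed (9.88%), with 0 at an unadjusted p under 0.05, 0 with the library total and 2 in the direct comparison, where 26.2% of all genes were called. The 0 members that differed between CCl4 and ConA (16.8%) became 5 with the library total (34.5% of all genes) and 3 in the direct comparison, below its share of 49.4%. Under TMM 0 of them differed at an unadjusted p under 0.05.

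Within the gavage route, Hspa1a and Hspa1b changed more with APAP than with ANIT or MDA, while the change of Hspa8 was not called different in either pair. The change of Hspa1a with ANIT minus that with APAP was -3.79 ± 0.88 (adjusted p 0.00184), and the change with APAP was above that with MDA by 2.37 ± 0.65 (adjusted p 0.00731). For Hspa1b the values were -2.06 ± 0.75 (adjusted p 0.0491) and 2.10 ± 0.61 (adjusted p 0.0121). TAA exceeded APAP in Hsp90aa1, as given above, and in Hspb1, where APAP minus TAA was -1.64 ± 0.55 (adjusted p 0.0448; -1.50, adjusted p 0.0961, with scaling to the library total). Between TAA and CCl4, the called members went in opposite directions: Hspa1a changed more with TAA, and Hspe1 more with CCl4, where TAA minus CCl4 was -1.52 ± 0.45 (adjusted p 0.0276).

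The remaining genes of the chaperone network were taken from lists chosen with earlier results of these data known. Their counts are to be read against the shares of all genes called given above for each compound, and they move with the scaling. With the library total the shares higher and lower were 5.84% and 18.8% with ANIT, 21.1% and 7.98% with APAP, 11.5% and 14.4% with MDA and 23.9% and 21% with TAA. They were 29.7% and 7.16% with CCl4, 35.6% and 5.44% with GAL and 7.79% and 26.5% with ConA. Of 14 measured genes of HSP90 and its cochaperones, CCl4 raised 10 and lowered 0 (median 1.13), TAA raised 6 and lowered 1 (median 0.28) and GAL raised 4 and lowered 0 (median 0.60). ANIT raised 3 and lowered 2 (median 0.039), APAP 2 and 3 (median -0.19), MDA 1 and 2 (median -0.12) and ConA 2 and 1 (median -0.10). With the library total 11 were higher and 0 lower with CCl4, 9 and 0 with GAL, 5 and 2 with TAA, 2 and 1 with APAP, 1 and 2 with MDA, 1 and 3 with ANIT, and 0 and 4 with ConA. Cacybp, an HSP90-associated protein of ubiquitin ligase complexes, rose by 2.52 ± 0.59 with CCl4. Fkbp5, an HSP90 cochaperone induced by the glucocorticoid receptor, rose by 2.41 ± 0.27 with MDA (adjusted p 1.05e-06), and Fkbp4, its counterpart in receptor maturation, changed by -1.89 ± 0.34 with ConA. Of the 8 subunits of the cytosolic chaperonin CCT, which folds actin and tubulin, 7 rose and 0 fell with each of CCl4 (median 1.20), GAL (0.93) and TAA (0.80), among them Tcp1 by 1.59 ± 0.31 with CCl4 and Cct2 by 1.14 ± 0.08 with TAA. ANIT and MDA raised 3 CCT subunits each, and APAP and ConA 2 each; with the library total ANIT raised 1, MDA 3, APAP 4 and ConA 0.

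Of 16 tested of 17 further cytosolic HSP70, HSP110, HSP40 and small HSP genes, 7 rose and 1 fell with TAA, 6 rose and 0 fell with GAL, and 4 rose and 1 fell with each of CCl4 and ANIT. The counts were 3 and 2 with ConA, 2 and 2 with APAP, and 2 and 0 with MDA. Over all genes 26.4% were higher with TAA, 12.8% with GAL, 18% with CCl4 and 14% with ANIT. With the library total, where those shares were 23.9%, 35.6%, 29.7% and 5.84%, 6 were higher with TAA, 11 with each of GAL and CCl4 and 2 with ANIT, and the counts were 3 with APAP, 1 with MDA and 0 with ConA. Hspa2, an HSP70 best known from testis, rose by 3.11 ± 0.25 with TAA (adjusted p 5.13e-09), Hspa4l, an HSP110, by 2.14 ± 0.45 with CCl4, and Dnajb4, a relative of Dnajb1, by 1.69 ± 0.46 with GAL. Dnajc7, another J-domain protein, fell with ConA (adjusted p 0.0112). Of 9 genes of HSF and its regulators, CCl4 raised 3 and lowered 0, ConA raised 3 and lowered 1, TAA raised 2 and lowered 1, GAL and MDA each raised 1 and lowered 1, and ANIT and APAP each raised 1 and lowered 0. With the library total ANIT and MDA each raised 0 and lowered 1, and ConA raised 1 and lowered 3. Hsf1 itself rose by 0.95 ± 0.27 with GAL (adjusted p 0.0425). Hsf2 changed by -1.32 ± 0.36 with ConA, Bag2, an exchange factor, rose by 2.66 ± 0.48 with ConA, and Stub1, the ubiquitin ligase that works with HSP70, changed by -0.86 ± 0.25 with GAL.

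Of 9 other mitochondrial chaperones and proteases, 4 rose and 0 fell with ANIT, 3 rose and 2 fell with CCl4, 2 and 2 with TAA, 2 and 1 with MDA, 1 and 2 with GAL and with APAP, and 1 and 3 with ConA. With the library total, 0 rose and 1 fell with ANIT, 5 and 0 with CCl4, 1 and 2 with TAA, 1 and 0 with MDA and with APAP, 1 and 1 with GAL, and 0 and 4 with ConA. Lonp1, the matrix protease, rose by 1.16 ± 0.11 with CCl4, Grpel2, a cochaperone of mitochondrial HSP70, by 1.81 ± 0.16 with TAA. Clpx, the unfoldase of another matrix protease, changed by -2.04 ± 0.34 with GAL and Dnaja3 by -1.27 ± 0.23 with ConA.

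Markers of other processes and cells moved in the same livers, and their part in the chaperone results was not tested. Their counts are against the route vehicle under TMM. Over all genes, 26.4% were called higher with TAA, 16.8% with ConA, 17.3% with APAP and 12.8% with GAL. The shares were 18% with CCl4, 17.4% with MDA and 14% with ANIT. Called lower were 15.7% with GAL, 15.6% with CCl4 and 17.3% with ConA. All 8 immediate early genes rose with TAA (median 2.72) and with ConA (median 3.37, Atf3 by 8.00 ± 0.92), whereas with CCl4 2 rose and 5 fell (Fosb by -2.20 ± 0.75) and with GAL 0 rose and 2 fell (Egr1 by -1.68 ± 0.35). Of 5 tested neutrophil markers (S100a8, S100a9, Retnlg, Cxcr2, Csf3r) 5 rose with TAA, where their sum was 158 to 825 CPM beside 2.11 to 62.2 in gavage mice. Of 4 tested, 3 rose with ConA (126 to 286 CPM, beside 7.94 and 8.97 in intravenous saline mice) and 3 with APAP, and of 5 tested 4 rose with GAL (25.3 to 40.7 CPM, beside 5.41 and 5.53 in intraperitoneal saline mice). With CCl4 2 of 5 rose (10.6 to 73.0 CPM, every liver above both of those saline mice), with MDA 2 of 4 and with ANIT 1 of 4. Hepatocyte markers fell with GAL in 6 of 6 (sum 25217 to 33235 CPM) and with CCl4 in 4 of 6 (19627 to 30321), beside 54985 to 60331 CPM in intraperitoneal saline mice. Those sums are under TMM, and a level relative to the library total is the CPM times the library's TMM factor. The factors were 1.63 to 1.81 with GAL, 1.15 to 1.50 with CCl4, and 1.09 and 0.908 in those saline mice. Relative to the library total both falls are therefore smaller, most so with GAL. Kupffer cell markers fell with ConA in 5 of 5, to a sum of 22.9 to 49.8 CPM from 277 and 280 in intravenous saline mice. No gene of these 3 marker lists had a median of 0 in any group.

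Across the 57 livers and outside the 10 members, the patterns most like that of the Hspa1a and Hspa1b sum among 8092 genes averaging 5 CPM or more were those of Gm48789 (r = 0.70), Gm7893 (0.61), Vamp3 (0.61), Zfp703 (0.59) and Rbm38 (0.57). Pearson's r was taken over log2(CPM + 1) of 57 livers that share group and depth differences, and is a description. Hspa1b, which makes up most of the sum, had rank 1 (r = 1.00). Of the members outside the sum, Dnajb1 came closest (r = 0.52, rank 13), then Hsph1 (0.50, rank 20), while Hspb1 (0.29, rank 527) and Hsp90aa1 (0.14, rank 1793) were less alike, and Hspd1 and Hspe1 stood at 0.00 and -0.06.

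Within the 13 gavage vehicle mice, 12 relations of the Hspa1a and Hspa1b sum were tested, with 8 other members and with Fos, Jun, Egr1 and Atf3. After Benjamini-Hochberg adjustment, 0 of 12 passed by permutation tests with 100000 resamples, and 4 had an unadjusted p under 0.05. The strongest were with Bag3 (Pearson's r = 0.68, permutation p 0.00975, adjusted 0.0789; Spearman's rho = 0.48, permutation p 0.103, adjusted 0.439) and Hspa8 (r = 0.66, permutation p 0.0131, adjusted 0.0789; rho = 0.57, permutation p 0.0465, adjusted 0.439). Without the 2 mice farthest from the median of the sum, r fell to 0.19 for Bag3 and 0.50 for Hspa8. Among the 9 mice numbered above 4 it was -0.19 and 0.10, so that neither relation held within that range.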

How the data were processed

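RNA-seq of 57 livers was analysed from the deposited table of estimated counts per gene. Libraries were stranded mRNA, read single-end, per the labels' protocols. Salmon 1.6.0, R 4.1.3 and GRCm39 are named, per the submitters' processing notes, without a role; annotation, filters and use of strand are not given in the sources used here. Over 6449 genes, longer transcripts had a lower smallest nonzero value (Spearman's rho -0.95), so 1 read weighs more in a short gene, and counting intervals were not computed. Symbols came from a GENCODE M21 table (51482 IDs matched, 2825 did not), and promoters from RefSeq (GRCm38.p6). Groups and replicate numbers came from the sample labels.

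Estimated counts were rounded and tested with edgeR 4.0.16 in R 4.3.3 (TMM, filterByExpr, quasi-likelihood test, two-sided, Benjamini-Hochberg adjustment), each comparison on its 2 groups. Differences between compounds came from 1 model of 10 groups. The scripts were tested on simulated counts. Alternatives used DESeq2 1.42.0, limma 3.58.1, other scaling, filters, replicate numbers and left-out mice; leaving out ConA mice 8 and 11, the replicate block between vehicles and overlaps relative to the library total were added after seeing the data. The members and gene lists were chosen with earlier results of these data known. The named genes are the members, at most 4 genes of each list, taken as the largest called rise or fall with a compound against its route vehicle, and the 5 most like the Hspa1a and Hspa1b sum. No 2 libraries held identical values (0 pairs).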

Additional observations from a re-analysis of the deposited data

Results flagged for a closer look

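In groups of 4 to 10 mice, 14 of 70 tests of a member found a mouse far from the others by Dixon's 95% criterion. Chance alone meets it in about 1 of 20 groups of normally distributed values. Here it was applied to CPM without a log, and the same mice enter the tests of several genes. The 14 are therefore a description and not a count above chance. In APAP, mouse 1 was far above in Hspa1b (79.0 CPM, next 27.3), Dnajb1 (64.6, next 9.71), Hsph1 (98.0, next 31.2), Hspa8 (3351, next 601) and Bag3 (126, next 27.3), and mouse 2 in Hsp90aa1 (144 CPM, next 58.4). In ConA, mouse 8 stood apart in Hspa1a (6.15 CPM, next 1.69) and Hspa1b (52.3, next 13.9), mouse 11 in Hspb1 (1375, next 513), and mouse 12 was low in Bag3 (27.6 CPM, next 55.1). In MDA, mouse 7 was high in Hspb1 (46.2 CPM, next 21.9) and Dnajb1 (8.60, next 6.19) and mouse 1 in Hspa8 (1044, next 601). In TAA, mouse 1 was high in Bag3 (60.3 CPM, next 40.2).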

How the results depend on the processing

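Of the alternatives other than leaving out 1 mouse, 1585 values kept direction and side of the threshold (counts, within 1.5 times), 109 gained a call and 75 lost one, and with 1 mouse left out the numbers were 821, 24 and 53. Counts of the 10 members called against the route vehicle moved as follows, and except where fewer mice or genes entered a fit the cause was not tested. For ANIT (2) the count was 1 in a fit over all 57 samples, with the library total and with the range of numbers as a covariate. For APAP (4) it was 0 among mice numbered above 4. For MDA (1) it was 0 in the fit over all samples and with Hspa1a and Hspa1b summed, 2 with the library total and DESeq2, and 3 with a minimum mean of 5 CPM and with the range of numbers. For GAL (7) it was 3 in the fit over all samples. For ConA (1) it was 4 in that fit, with DESeq2 and with the range of numbers, and 2 with limma. Against all vehicles, ANIT (2) had 1 with the range of numbers, and APAP (5) had 3 with limma and 2 among mice numbered above 4. MDA (1) had 0 with no filter, 2 with the library total and DESeq2, and 3 with the minimum of 5 CPM and with the range of numbers. ConA (9) had 3 with the library total and 5 without mice 8 and 11, of which 4 were higher and Hspa1b lower. Comparing compounds directly, without vehicles, called 88 differences of members (41.9%) in place of 48 (22.9%), while the share over all genes went from 15.1% to 28.8%.

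Same-numbered mice did not deviate together in every pair of any comparison with 3 or more pairs (r over all pairs from -0.26 to 0.27, threshold 0.1), so numbers were not used as pairs. With the replicate block the counts were 0 for ANIT and APAP against either control, 3 (route) and 4 (all vehicles) for MDA, and 4 for ConA against all vehicles. No block could be fitted for CCl4 and ConA against saline, and ANIT has no mice above 4.

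Directions turned for Dnajb1 with APAP, to -0.11 (route) and -0.10 (all vehicles) among mice above 4. They also turned for Hspa1b with APAP against all vehicles (-0.047 with the replicate block). With GAL against all vehicles, Hspd1 (0.49) and Hspe1 (0.18) were above 0 with the library total, which moved the all-gene median to 0.84, so both lay below that median under either scaling. Without ConA mice 8 and 11, Hspa1a, Hspa1b and Hspe1 were -0.33, -1.22 and -0.037 against all vehicles.

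With 1 mouse left out, Dnajb1 with APAP ran from -0.032 to 1.40 (route) and from -0.0093 to 1.43 (all vehicles). Counts in either direction ran from 0 to 3 for ANIT and MDA, 2 to 8 for GAL and 1 to 2 for ConA against the route vehicle. Against all vehicles they ran from 1 to 3 for ANIT and 0 to 3 for MDA. With 2 saline mice a route, small differences are beyond these comparisons.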

Other observations

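The share of the Hspa1 sum that was assigned to Hspa1a is given here as a description. Its median was 8.63% in gavage vehicle mice (2.43% to 19.6%) and 26.7% in TAA livers (19.9% to 31.3%), without overlap. It was 21.4% with APAP (12.5% to 31.7%), 18.4% with GAL (11.2% to 24.5%), 19.9% with MDA (2.18% to 25.4%) and 8.34% with CCl4 (4.20% to 15.6%). Because the 2 transcripts share much of their sequence, the share depends on how reads were divided between them, and no test was made.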
